A study of Homo sapiens with 4 samples.

Results

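The 43 genes described here encode the NF-kB signalling machinery and the inflammatory cytokines, chemokines and surface proteins known as its targets. They were chosen by name and known role and make up 43 of the 25798 gene IDs in the deposited tables. Transcripts were measured by RNA sequencing of total RNA in 4 libraries of the human pancreatic adenocarcinoma line SW1990, labelled wild type. The groups compared were 2 libraries of cells given 100 nM erianin for 48 h and 2 libraries of cells given DMSO, the solvent, for the same time. Erianin, a bibenzyl from orchids, acts on microtubules by binding tubulin, and the title of the study names the kinases AKT and ASK1 as its targets. The cells were grown in medium with serum and antibiotics, and no stimulus of NF-kB is named in the labels. All 4 libraries come from 1 cell line, and whether the replicates came from separate cultures is not stated, so the p-values rest on a spread between libraries that may be technical alone.

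NF-kB is a family of dimeric transcription factors that are held in the cytoplasm by inhibitors of the IkB family. Receptors of the TNF, IL-1 and Toll-like families act through adaptors and ubiquitin chains on the IkB kinase (IKK) complex, which marks the inhibitors for destruction and so frees the dimers to enter the nucleus. In a second, noncanonical branch the p100 protein encoded by NFKB2 is cut to p52, which pairs with RELB. Targets include chemokines and cytokines as well as NFKBIA and TNFAIP3, whose products shut the pathway down again. In pancreatic cancer cells the pathway is known for constitutive activity, and the protein activity itself was not measured by these libraries.

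The libraries held 63336545 and 59923935 counts after erianin and 63254725 and 60798427 counts after DMSO. Keratin genes and other ductal epithelial markers summed to 13060 and 14950 counts scaled to the library size (CPM) after erianin and 12160 and 12470 CPM after DMSO, all 6 of 6 markers being above 1 CPM. Of the immune markers, PTPRC (CD45) had 0 counts in both erianin libraries, and 9 and 0 in DMSO replicates 1 and 2. Apart from CD68, which lysosomes of many cell types hold, the immune markers summed to 2.26 and 1.48 CPM after erianin and 1.79 and 2 CPM after DMSO. The 5 fibroblast markers summed to 7.66 and 9.48 CPM after erianin, and to 31.2 CPM in DMSO replicate 1 and 8.85 CPM in DMSO replicate 2, so that 1 DMSO library stood apart. The 2 endothelial markers with a row summed to at most 1.30 CPM in any library. Among 17090 genes tested over the whole table with edgeR's quasi-likelihood F test, 7 passed a Benjamini-Hochberg adjusted p of 0.05, which is 0.041%.

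The signalling genes were expressed in both groups, whereas most of the inflammatory ligands were under 1 FPKM in both. In bulk libraries fewer cells that express a gene and less RNA per cell cannot be told apart. On the FPKM scale, which divides by transcript length and so allows genes to be set side by side, 14 of the 43 genes averaged at least 10 FPKM over the 4 libraries, 14 lay from 1 to 10 FPKM and 15 were under 1 FPKM. Of the 26 genes for signalling components and other targets 22 averaged at least 1 FPKM, and of the 17 chemokine and cytokine genes 6 did so. IRAK1, the kinase that carries signals from IL-1 and Toll-like receptors, averaged 292 ± 36.8 FPKM after erianin and 279 ± 34.6 FPKM after DMSO (SD, n = 2 each). TNFRSF12A, the receptor Fn14 for the TNF-like cytokine TWEAK, averaged 291 ± 28.9 FPKM after erianin and 269 ± 22.6 FPKM after DMSO (SD, n = 2 each). These 2 genes headed the order and did not differ from each other beyond their spread. TNIP1 (ABIN-1), an A20-binding adaptor that restrains the pathway, came next at 106 ± 1.35 FPKM after erianin and 95.8 ± 1.45 FPKM after DMSO (SD, n = 2 each). RELA, NFKB2 and IL18 followed, between 42.8 and 66.9 FPKM as means of all 4 libraries. IL18 was the most abundant ligand, at 40.9 ± 9.93 FPKM after erianin and 44.7 ± 3.21 FPKM after DMSO (SD, n = 2 each), and LIF and IL1B were the next ligands in order.

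**Figure D1:**
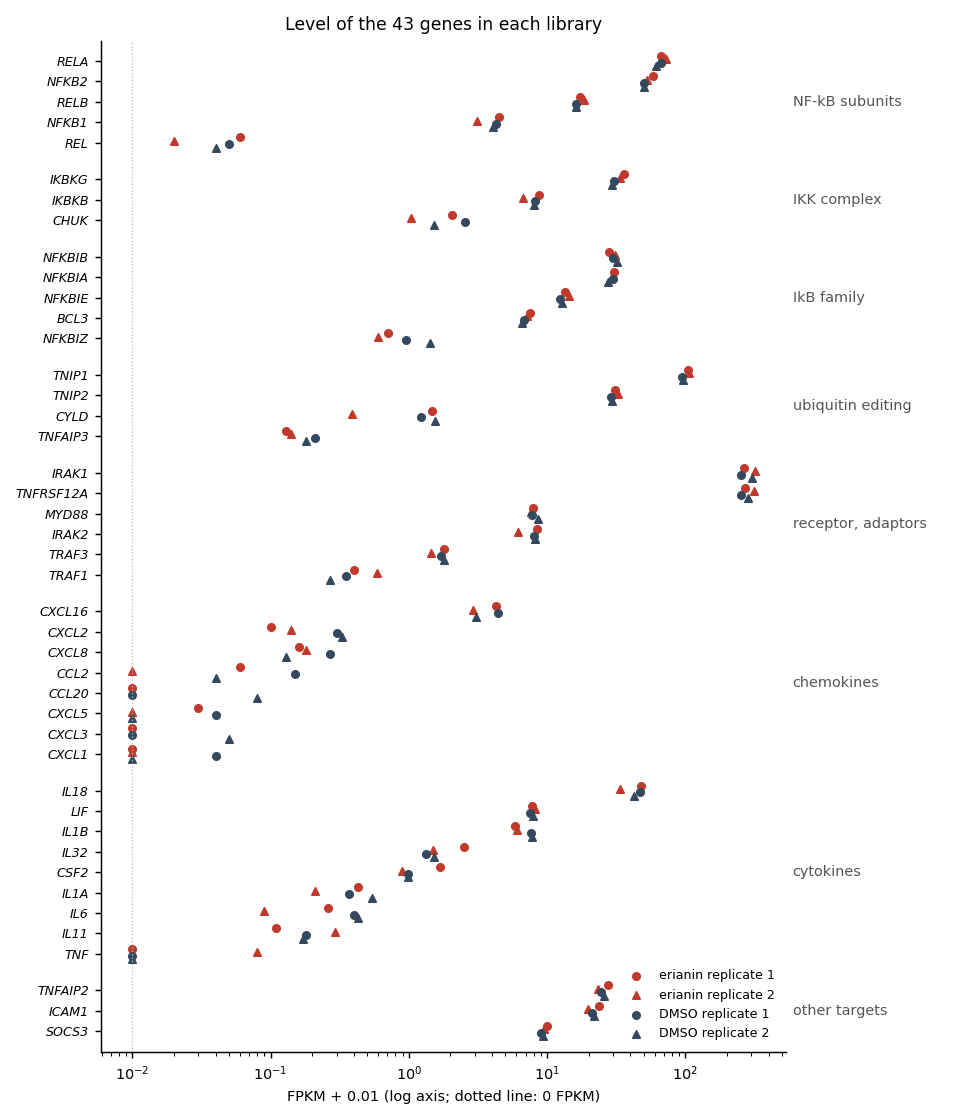
FPKM + 0.01 on a log axis for each of the 43 genes, grouped by role and ordered by mean level within a role. Each mark is 1 library (red, erianin; dark, DMSO; circle, replicate 1; triangle, replicate 2), and the dotted line marks genes listed at 0 FPKM. Signalling genes lie mostly above 1 FPKM and most chemokines below it, and the marks of both groups lie close together for the abundant genes.

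None of the 43 genes passed the test in either direction. Of the 43, 37 had enough counts to be tested, and the other 6 (CXCL1, CXCL3, CXCL5, CCL2, CCL20 and TNF) did not. With edgeR, 0 genes passed an adjusted p of 0.05, DESeq2 and limma-voom likewise passed 0, and the lowest edgeR adjusted p was 0.575. At an unadjusted p under 0.05, 3 of the 37 genes were higher after erianin (NFKB2, IKBKG and TNIP1) where 2.21% of all genes tested were, and 1 of the 37 was lower (NFKBIZ) where 5.89% of all genes tested were. Without erianin replicate 1, 8 of 38 genes of the set then tested (21.1%) passed with edgeR, on the assumption that the lone erianin library varies as the DMSO libraries do. These were RELA, RELB, IKBKG, TNIP1, TNIP2, TNFRSF12A and IRAK1, higher, and CYLD, lower, beside 3166 of 18116 genes (17.5%) over the whole table.

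Fold changes were small for the abundant genes. The log2 fold change of erianin over DMSO had a median of 0.11 over the 37 genes tested, beside -0.01 over all genes tested, with 22 genes above 0 and 15 below. The 95% interval of the fold lay within 1.5-fold either way for 21 of the 37 genes. With library totals as the only scaling, the median of the 37 genes was 0.0056 and that of all genes -0.11, a shift of the whole table that lowers every value below by about the same amount. Without erianin replicate 1 the median was 0.05. In 16 of the 37 genes both erianin libraries lay above both DMSO libraries in CPM, and in 5 both lay below. Over all genes tested, 21.7% were separated upwards in this way and 24.4% downwards.

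**Figure D2:**
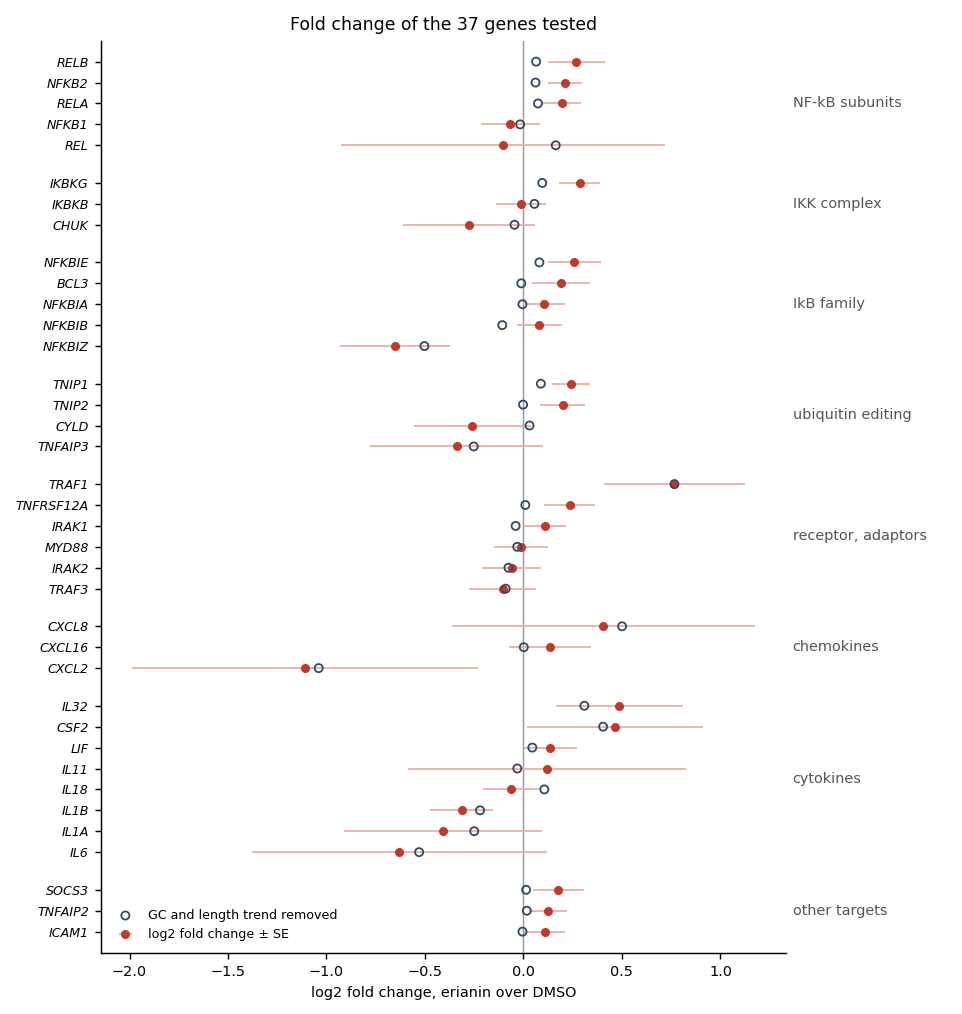
Log2 fold change of erianin over DMSO from edgeR for the 37 genes tested, with bars of 1 SE (filled), and the same after removal of each library's GC and length trend (open). The filled points of NFKB2, RELA and TNIP1 lie at 0.21, 0.20 and 0.24, and their open points at 0.06, 0.07 and 0.09.

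Of the 5 subunits of NF-kB itself, NFKB2, RELA and RELB were higher in both erianin libraries than in either DMSO library, without passing the test. Over all genes tested 21.7% were separated upwards in this way, and among genes of at least 55% GC 2163 of 5234 were. The transcripts of NFKB2, RELA and RELB have GC contents of 62.4%, 57.1% and 65.4%. NFKB2 (chr10:102394110-102402529, GRCh38, + strand), the p100 and p52 subunit of the noncanonical branch, was at 207 and 204 CPM after erianin and 175 and 179.9 CPM after DMSO. This gave a log2 fold change of 0.21 ± 0.09 (SE), with an edgeR adjusted p of 0.575. RELA (chr11:65653596-65663094, - strand), the p65 subunit with the main transactivation domain of the canonical branch, was at 214 and 238 CPM after erianin and 198 and 197 CPM after DMSO, a log2 fold change of 0.20 ± 0.10 (SE). The groups did not overlap for either gene, and both differences were under 1.2-fold. RELB (chr19:45001430-45038198, + strand), the partner of p52, was at 36.8 and 46.0 CPM after erianin and 33.6 and 35.1 CPM after DMSO. Its log2 fold change of 0.27 ± 0.15 (SE) rested largely on erianin replicate 2, without which it was 0.10. With the GC and length trend removed, NFKB2, RELA and RELB had log2 fold changes of 0.06, 0.07 and 0.06. NFKB1, the p105 and p50 subunit, was at 17.4 and 15.6 CPM after erianin and 17.3 CPM in both DMSO libraries, so the groups overlapped. REL, the c-Rel subunit known from lymphoid cells, averaged 0.03 FPKM.

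The IKK complex consists of the kinases CHUK (IKK alpha) and IKBKB (IKK beta) and the regulatory subunit IKBKG (NEMO), which binds ubiquitin chains. IKBKG (chrX:154541199-154565046, + strand) was at 73.3 and 76.3 CPM after erianin and 61.3 and 61.5 CPM after DMSO. The log2 fold change was 0.29 ± 0.10 (SE), with an edgeR adjusted p of 0.575, and the spread within each group was smaller than the gap between them. Its count is uncertain, since its transcript shares 1073 nucleotides at 100% identity with the pseudogene IKBKGP1. IKBKB was at 35.7 and 33.2 CPM after erianin and 35.7 and 33.9 CPM after DMSO, a log2 fold change of -0.01 ± 0.13 (SE). CHUK was at 8.40 and 4.91 CPM after erianin and 10.3 and 5.83 CPM after DMSO, so that each group spread more widely than the groups differed.

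The IkB family held the largest fold change below 0 among genes of the set with at least 1 CPM. NFKBIZ (chr3:101827991-101861022, + strand) encodes IkB zeta, a nuclear member that acts with p50 to switch on secondary response genes such as IL6. It was at 2.86 and 2.57 CPM after erianin and 3.47 and 5.08 CPM after DMSO, with both erianin libraries below both DMSO libraries. Its log2 fold change was -0.65 ± 0.28 (SE), with an edgeR adjusted p of 0.575, and -0.35 without DMSO replicate 2. The cytoplasmic inhibitors NFKBIA and NFKBIB differed little between groups. NFKBIA (IkB alpha), the inhibitor that NF-kB itself induces, was at 59.9 and 60.9 CPM after erianin and 57.1 and 55.2 CPM after DMSO, a log2 fold change of 0.10 ± 0.11 (SE). NFKBIB (IkB beta; chr19:38899700-38908893, + strand), with a mean level close to that of NFKBIA on the FPKM scale, was at 57.7 and 64.9 CPM after erianin and 57.2 and 58.8 CPM after DMSO. Its log2 fold change was 0.08 ± 0.11 (SE) and turned to -0.02 with library totals alone. NFKBIB overlaps SIRT2 on the opposite strand, and whether counting used strand is not given in the sources used here. NFKBIE (IkB epsilon) and the nuclear member BCL3 had log2 fold changes of 0.26 and 0.19, with groups that did not overlap, and of 0.08 and -0.01 with the GC and length trend removed. Without erianin replicate 2 NFKBIE was at 0.15.

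Promoter sequence is shown for IkB, cytokine and chemokine genes of unlike level, because these letters are the ones NF-kB dimers are known to read. Sequences are the 250 bases before a RefSeq start of each gene (GRCh38.p14), written 5′ to 3′ on the gene's strand, with matches in capitals. NFKBIA lies at chr14:35404750-35404999 (- strand), NFKBIB at chr19:38899719-38899968 (+ strand), IL32 at chr16:3065153-3065402 (+ strand), CXCL2 at chr4:74099196-74099445 (- strand) and CXCL8 at chr4:73740319-73740568 (+ strand).
NFKBIA: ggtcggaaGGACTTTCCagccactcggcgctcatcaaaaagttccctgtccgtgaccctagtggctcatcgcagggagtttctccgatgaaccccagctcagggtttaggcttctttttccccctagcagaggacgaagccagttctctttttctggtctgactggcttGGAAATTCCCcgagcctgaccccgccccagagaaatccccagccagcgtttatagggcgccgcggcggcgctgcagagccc
NFKBIB: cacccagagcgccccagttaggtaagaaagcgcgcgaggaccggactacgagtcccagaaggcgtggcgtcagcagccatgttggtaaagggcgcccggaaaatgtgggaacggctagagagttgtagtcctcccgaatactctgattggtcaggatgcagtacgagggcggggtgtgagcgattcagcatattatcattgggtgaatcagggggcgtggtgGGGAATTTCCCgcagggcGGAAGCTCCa
IL32: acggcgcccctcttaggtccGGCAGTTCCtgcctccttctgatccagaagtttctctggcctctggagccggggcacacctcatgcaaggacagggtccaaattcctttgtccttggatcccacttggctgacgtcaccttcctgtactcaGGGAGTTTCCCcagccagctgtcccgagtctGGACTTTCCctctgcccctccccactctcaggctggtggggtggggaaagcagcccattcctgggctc
CXCL2: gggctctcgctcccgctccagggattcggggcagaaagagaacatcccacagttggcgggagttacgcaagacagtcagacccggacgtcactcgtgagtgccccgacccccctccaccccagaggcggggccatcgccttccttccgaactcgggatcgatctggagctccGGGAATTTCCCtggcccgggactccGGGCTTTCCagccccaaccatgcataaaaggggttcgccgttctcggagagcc
CXCL8: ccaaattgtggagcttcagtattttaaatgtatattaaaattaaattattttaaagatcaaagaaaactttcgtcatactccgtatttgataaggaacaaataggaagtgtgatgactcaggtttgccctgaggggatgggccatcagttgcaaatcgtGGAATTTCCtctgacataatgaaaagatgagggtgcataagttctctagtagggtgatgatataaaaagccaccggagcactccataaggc
The motifs searched on both strands were the short kB motif GGNNNTTCC and the NF-kB consensus, and a stretch in capitals can hold overlapping matches of both. NFKBIB and IL32 each have a second window, not printed, whose 250 bases before the start hold no match. The CXCL2 window holds 2 such stretches and the NFKBIA window 2, and the levels of these genes were 0.21 FPKM and 29.4 FPKM as means of 4 libraries. The upstream window of IL1B holds no match to either motif. In the full windows of 300 bases (250 before and 50 after the start), 26 of 35 genes of the set with a window held the short motif, 19 the consensus and 27 either (77.1%). Among all 27305 genes with a window, 23.5% held the short motif, 13.3% the consensus and 29.3% either. Genes can have several windows, and of the 52 windows of the set 59.6% held either motif, beside 25.6% of all 35116 windows. All 6 of 6 chemokine genes with a window and 4 of 4 IkB genes held a match, beside 3 of 7 cytokine genes. Windows were not given for CCL2, CXCL16, IKBKB, IL18, LIF, NFKBIE, RELB and TNFRSF12A.

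Among the genes for ubiquitin editing, TNIP1 stood out by level and the A20 gene TNFAIP3 was nearly silent. TNIP1 (chr5:151029945-151093577, - strand) was at 326 and 366 CPM after erianin and 289.8 and 296 CPM after DMSO. That is a log2 fold change of 0.24 ± 0.10 (SE), with an edgeR adjusted p of 0.575 and with groups that did not overlap. TNIP2, a related A20-binding protein, was at 66.0 and 76.1 CPM after erianin and 61.0 and 62.8 CPM after DMSO. TNFAIP3, the ubiquitin-editing inhibitor that NF-kB strongly induces in most cells, had 50 and 45 counts after erianin and 74 and 56 counts after DMSO. CYLD, which removes ubiquitin chains from pathway components, was at 7 and 3.78 CPM after erianin and 6.06 and 6.86 CPM after DMSO, so that erianin replicate 2 alone was low.

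Of the receptor and the adaptors, TRAF1 had the largest fold change above 0 in the set. TRAF1 (chr9:120902393-120929173, - strand), an adaptor of TNF receptors and itself an NF-kB target, was at 1.95 and 3.19 CPM after erianin and 1.70 and 1.31 CPM after DMSO. Its log2 fold change was 0.77 ± 0.36 (SE), with an edgeR adjusted p of 0.575 and a value of 0.37 without erianin replicate 2. IRAK1 (chrX:154010500-154019980, - strand) was at 1005 and 1195 CPM after erianin and 1003 and 1037 CPM after DMSO, and its groups overlapped. TNFRSF12A was at 311 and 395 CPM after erianin and 282 and 318 CPM after DMSO, with overlapping groups. MYD88, the adaptor between Toll-like or IL-1 receptors and the IRAK kinases, was at 25.1 and 27.0 CPM after erianin and 25.5 and 27.1 CPM after DMSO. IRAK2 and TRAF3, an adaptor that keeps the noncanonical kinase NIK low, had log2 fold changes of -0.06 and -0.11.

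CXCL16 was the one chemokine of the 8 above 1 FPKM. CXCL16 (chr17:4733526-4739922, - strand), a membrane-bound chemokine that binds CXCR6, was at 10.6 and 8.15 CPM after erianin and 9.45 and 7.68 CPM after DMSO. The log2 fold change of CXCL16 was 0.13 ± 0.21 (SE), the groups overlapped, and the value ranged from -0.08 to 0.32 as single libraries were left out. The other 7 chemokine genes together had 40 and 31 counts after erianin and 66 and 48 counts after DMSO. CXCL8 (IL-8), the neutrophil attractant known from many pancreatic cancer lines, had 23 and 20 counts after erianin and 20 and 15 counts after DMSO. CXCL2, whose promoter letters are printed above, had 8 and 11 counts after erianin and 25 and 20 counts after DMSO. The log2 fold change of CXCL2 was -1.11 ± 0.88 (SE), with a 95% interval of the fold from 0.114 to 1.89. CXCL1 and CXCL2 share 207 nucleotides at 95.2% identity, so counts between them are uncertain. The monocyte attractant CCL2 had 5 and 0 counts after erianin and 12 and 4 counts after DMSO, the highest value falling in the DMSO library with the high fibroblast markers, whose part in this was not tested. CXCL1, CXCL3, CXCL5 and CCL20 had at most 6 counts in any library. A change in the 5 untested chemokines was not detectable at this depth, where 3 counts correspond to 0.0455 to 0.0540 CPM by library.

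**Figure D3:**
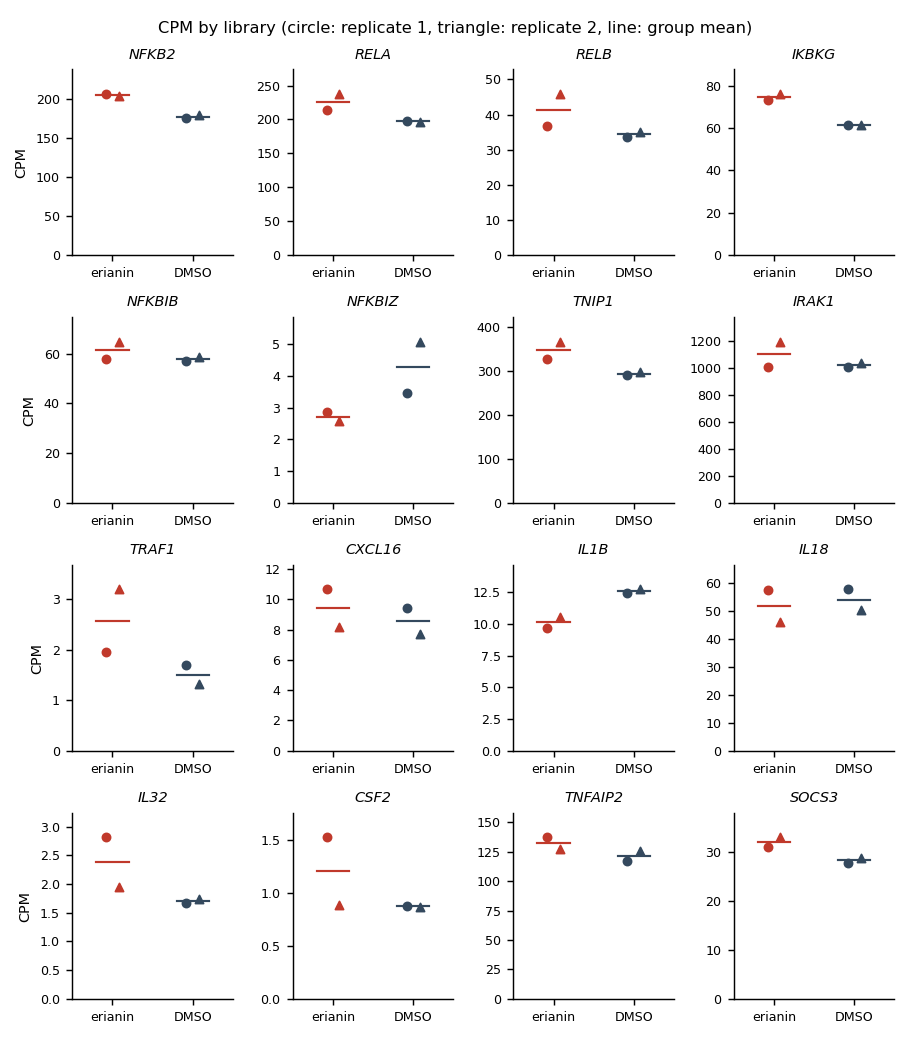
CPM in each library for the 16 genes named by rule, with erianin on the left and DMSO on the right of each panel, each axis starting at 0. Circles are replicate 1, triangles replicate 2 and lines the mean of 2 libraries. NFKB2 and IKBKG lie above DMSO with little spread, and TNIP1 lies above DMSO with erianin replicate 2 the higher. IL1B and NFKBIZ lie below, and the erianin libraries of TRAF1, IL32 and CSF2 lie far apart.

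The cytokine genes fell into an expressed and a nearly silent part. IL18 (chr11:112143251-112164117, - strand), which needs caspase cleavage to become active, was at 57.5 and 46.1 CPM after erianin and 57.8 and 50.5 CPM after DMSO, with overlapping groups and a log2 fold change of -0.06 ± 0.14 (SE). LIF, a cytokine of the IL-6 family that pancreatic cancer cells are known to secrete, was at 34.5 and 39.5 CPM after erianin and 32.6 and 34.7 CPM after DMSO, a log2 fold change of 0.14 ± 0.13 (SE). IL1B (chr2:112829751-112836903, - strand), the proinflammatory interleukin-1 beta, was at 9.69 and 10.6 CPM after erianin and 12.4 and 12.7 CPM after DMSO. Both erianin libraries lay below both DMSO libraries, and the log2 fold change was -0.31 ± 0.16 (SE), with an edgeR adjusted p of 0.576 and a range of -0.38 to -0.26 as single libraries were left out. IL32 (chr16:3065297-3082192, + strand), a cytokine with no rodent counterpart, was at 2.81 and 1.94 CPM after erianin and 1.67 and 1.73 CPM after DMSO. CSF2 (chr5:132073790-132076170, + strand), which encodes the growth factor GM-CSF, was at 1.52 and 0.882 CPM after erianin and 0.879 and 0.865 CPM after DMSO. Without erianin replicate 1 the log2 fold changes of IL32 and CSF2 were 0.18 and 0.01, against 0.49 ± 0.32 and 0.46 ± 0.45 (SE) with it.

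The remaining cytokines were scarce. IL6, the cytokine most often used to read NF-kB output, had 28 and 10 counts after erianin and 32 and 30 counts after DMSO. In CPM both erianin libraries lay below both DMSO libraries, and the log2 fold change was -0.63 ± 0.75 (SE). The difference rested largely on erianin replicate 2, without which the log2 fold change was -0.13. IL1A had 63 and 30 counts after erianin and 55 and 75 counts after DMSO, and IL11 had 18 and 39 counts after erianin and 31 and 27 counts after DMSO, with overlapping groups in both. TNF had 0 and 8 counts after erianin and 0 counts in both DMSO libraries. For IL6 the 95% interval of the fold ran from 0.195 to 2.14.

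The other targets, 3 genes for proteins of the cell interior or surface, had log2 fold changes slightly above 0 that nearly vanished with the GC and length trend removed (0.017 for TNFAIP2, 0.013 for SOCS3 and -0.0050 for ICAM1). TNFAIP2 (chr14:103123442-103137439, + strand), a TNF-induced protein linked to membrane protrusions, was at 137 and 128 CPM after erianin and 117 and 125 CPM after DMSO, a log2 fold change of 0.13 ± 0.10 (SE). SOCS3 (chr17:78356778-78360077, - strand), a feedback inhibitor of cytokine receptors that signal through JAK kinases, was at 31.0 and 33.0 CPM after erianin and 27.9 and 28.8 CPM after DMSO, a log2 fold change of 0.18 ± 0.13 (SE). ICAM1, the adhesion molecule, was at 80.9 and 73.8 CPM after erianin and 70.5 and 73.1 CPM after DMSO. The groups did not overlap for any of the 3 genes, as in 21.7% of all genes tested, and none passed the test.

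The fold changes of the 43 genes followed the GC content of their transcripts, as those of all genes did. Among genes of at least 55% GC, 18 of 18 tested lay above 0 with a median log2 fold change of 0.19, beside 4003 of 5234 genes and a median of 0.14 over the whole table. Among genes under 45% GC, 6 of 7 tested lay below 0 with a median of -0.26, beside 4271 of 5612 genes and a median of -0.26 over the whole table. Across the 37 genes the Spearman correlation of GC content with log2 fold change was 0.631, a description only, since the genes share the same 4 libraries. Once each library's GC and length trend had been removed, the median of the 37 genes was 0.0018, and IKBKG, NFKB2 and TNIP1 had log2 fold changes of 0.10, 0.06 and 0.09. The split of 22 genes above 0 and 15 below became 19 and 18, as NFKBIA, NFKBIB, BCL3, TNIP2, IRAK1, IL11 and ICAM1 turned below 0 and REL, IKBKB, CYLD and IL18 above it. NFKBIZ kept -0.50, IL1B -0.22 and TRAF1 0.77 after the same step. The trend was fitted in each library without regard to group. Its removal would therefore also take out any erianin effect that follows GC content or length, and the source of the trend was not tested.

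**Figure D4:**
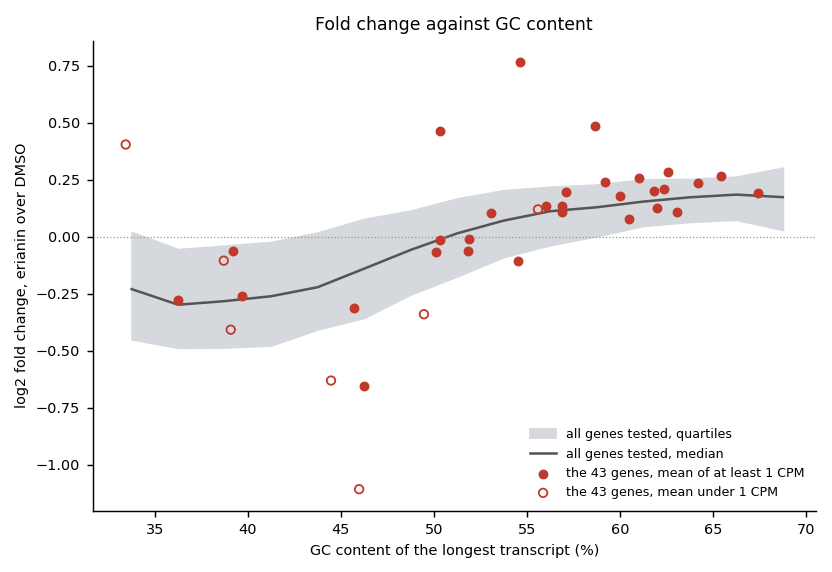
Log2 fold change of erianin over DMSO against GC content of the longest transcript, for the genes of the set with a mean of at least 1 CPM (filled) or less (open). The line and band are the median and quartiles of all genes tested in steps of GC content. Among the filled points TRAF1, NFKBIZ, CSF2 and IL32 lie farthest from the line.

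Upstream of the 43 genes, receptors of the TNF family were abundant and Toll-like and IL-1 receptors were scarce. Of 39 further receptors, adaptors and kinases, 37 had a row and all 37 were tested. With edgeR, DESeq2 and limma-voom 0 passed. At an unadjusted edgeR p under 0.05, 3 were higher and 2 lower, beside 2.21% and 5.89% of all genes tested. Log2 fold changes were above 0 for 17 and below 0 for 20, with a median of -0.13. Over all genes tested, 8318 lay above 0 and 8772 below, with a median of -0.01. Of the 37, 24 averaged at least 1 FPKM and 13 less, the 13 including TLR1, TLR3, TLR4, TLR6, IL1R1 and IL1RAP. The TNF receptor gene TNFRSF1A was at 177 ± 2.47 FPKM after erianin and 168 ± 6.31 FPKM after DMSO (SD, n = 2 each), and LTBR, the lymphotoxin beta receptor, at 203 ± 4.77 FPKM after erianin and 190.2 ± 6.80 FPKM after DMSO (SD, n = 2 each). TNFRSF1B, the other TNF receptor gene, was at 27.1 ± 0.233 FPKM after erianin and 25.9 ± 0.283 FPKM after DMSO (SD, n = 2 each). TAB2 (chr6:149218641-149411613, + strand), which links ubiquitin chains to the kinase TAK1, was at 18.1 and 16 CPM after erianin and 26.1 and 23.9 CPM after DMSO, a log2 fold change of -0.55 ± 0.15 (SE) with an edgeR adjusted p of 0.575. CARD10 (chr22:37490362-37519542, - strand), a scaffold that carries signals from G protein-coupled receptors to IKK, was at 54.2 and 59.8 CPM after erianin and 44.7 and 46.3 CPM after DMSO, a log2 fold change of 0.33 ± 0.12 (SE). Without erianin replicate 1 the log2 fold changes of TAB2 and CARD10 were -0.65 and 0.39, and without erianin replicate 2 they were -0.46 and 0.25. With the GC and length trend removed, 0 of the 37 passed with edgeR and their median log2 fold change was -0.0007. TAB2 and CARD10 then had log2 fold changes of -0.28 and 0.19.

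Receptors and downstream genes for the cytokines of the set were listed for 21 genes, of which 14 had a row and 11 were tested. With edgeR, DESeq2 and limma-voom 0 passed. At an unadjusted edgeR p under 0.05, 0 were higher and 2 lower, beside 2.21% and 5.89% of all genes tested. Of the 11, 3 lay above 0 and 8 below, with a median log2 fold change of -0.15, beside -0.01 over all genes tested. Once the GC and length trend was removed the median was -0.09, with 2 above 0 and 9 below. Both chains of the LIF receptor were lower in both erianin libraries than in either DMSO library. The same held for 24.4% of all genes tested and for 2424 of 5612 genes under 45% GC. LIFR (chr5:38474963-38608354, - strand), the ligand-specific chain, was at 28.2 and 25.8 CPM after erianin and 42.0 and 38.3 CPM after DMSO, a log2 fold change of -0.57 ± 0.13 (SE) with an edgeR adjusted p of 0.575. IL6ST (chr5:55935095-55994993, - strand) encodes gp130, the chain shared by receptors of the IL-6 family, and was at 42.4 and 36.6 CPM after erianin and 55.2 and 56.0 CPM after DMSO, a log2 fold change of -0.49 ± 0.12 (SE) with an edgeR adjusted p of 0.575. Without erianin replicate 1 the log2 fold changes of LIFR and IL6ST were -0.65 and -0.61, and without erianin replicate 2 they were -0.51 and -0.39. OSMR, the oncostatin M chain that also pairs with gp130, was at 64.4 and 45 CPM after erianin and 67.0 and 64.8 CPM after DMSO, and JAK1, the kinase bound to gp130, at 27.9 and 18.9 CPM after erianin and 30.0 and 31.4 CPM after DMSO. In both the gap rested on erianin replicate 2, without which the log2 fold changes were -0.03 for OSMR and -0.14 for JAK1. LIFR and IL6ST transcripts have GC contents of 36.2% and 36.6%, and with the GC and length trend removed their log2 fold changes were -0.26 and -0.19. TNFSF12, which encodes TWEAK, the ligand of TNFRSF12A, was at 16.2 ± 2.78 FPKM after erianin and 16.5 ± 0.375 FPKM after DMSO (SD, n = 2 each). This level is uncertain, since TNFSF12 shares 553 nucleotides at 100% identity with TNFSF12-TNFSF13 on the same strand. TNFSF12-TNFSF13 had 480 and 0 counts after erianin and 21 and 0 counts after DMSO.

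**Figure D5:**
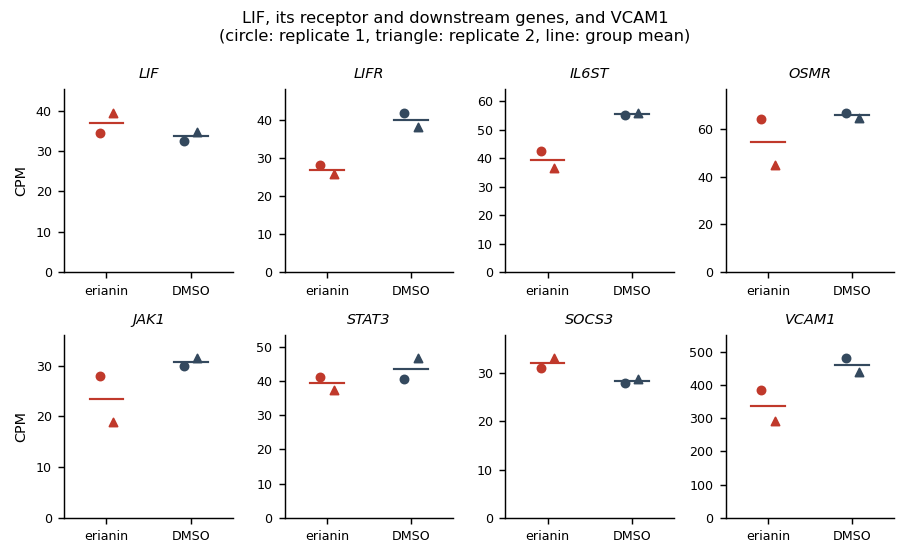
CPM in each library for LIF, its receptor chains LIFR and IL6ST, the related chain OSMR, the kinase JAK1, STAT3, the feedback inhibitor SOCS3, and VCAM1, with erianin left of DMSO and each axis starting at 0. Circles are replicate 1, triangles replicate 2 and lines the mean of 2 libraries. LIFR, IL6ST and VCAM1 lie lower in both erianin libraries, and LIF and SOCS3 do not.

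Of 30 further known targets, 23 had a row and 21 were tested, and 0 passed with edgeR, DESeq2 and limma-voom. At an unadjusted edgeR p under 0.05, 1 was higher and 1 lower, beside 2.21% and 5.89% of all genes tested. Log2 fold changes were above 0 for 16 and below 0 for 5, with a median of 0.16. Over all genes tested, 8318 lay above 0 and 8772 below, with a median of -0.01. Once the GC and length trend was removed, 12 of the 21 lay above 0 and 9 below, with a median of 0.015. VCAM1 (chr1:100719742-100739045, + strand), an adhesion molecule known from activated endothelium, was at 385 and 291 CPM after erianin and 481 and 441 CPM after DMSO, a log2 fold change of -0.45 ± 0.14 (SE) with an edgeR adjusted p of 0.575. VCAM1 had log2 fold changes of -0.67 without erianin replicate 1 and -0.26 without erianin replicate 2. Its log2 fold change was -0.26 with the GC and length trend removed. SAA1 (chr11:18266174-18269977, + strand), an acute-phase protein, was at 80.3 and 90.5 CPM after erianin and 72.1 and 71.6 CPM after DMSO, a log2 fold change of 0.25 ± 0.11 (SE), and shares 616 nucleotides at 97.7% identity with SAA2. BCL2L1, which encodes the survival protein BCL-xL, averaged 245 ± 7.30 FPKM after erianin and 229 ± 7.71 FPKM after DMSO (SD, n = 2 each). IER3, an immediate early target, averaged 159 ± 0.962 FPKM after erianin and 149 ± 4.47 FPKM after DMSO (SD, n = 2 each), so that several known targets were abundant in the cells while most chemokines were not.

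The rows below the gene level could not be compared. The deposited tables divide 34 of the 43 genes into several unnamed rows, and the share of a gene's counts in its largest row differed by more than 20 percentage points between libraries in 14 of the 27 such genes with at least 1 CPM. For IRAK1 that share was 86.6% and 56.8% after erianin and 94.2% and 36.0% after DMSO, so that replicates of 1 group differed as much as the groups. For NFKB1 it was 0% in both erianin libraries and 70.9% and 29.3% after DMSO. All values above are therefore sums over the rows of a gene, and FPKM values, which are summed over rows as well, depend on how the rows divided the reads. Counts are also uncertain where genes overlap, as CHUK does with ERLIN1 and TAB2 with SUMO4 on the same strand, and RELA, CXCL16, IL6, IL32, LIF, LIFR, IL6ST and TNFRSF12A with neighbours on the opposite strand.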

How the data were processed

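RNA sequencing of 2 erianin and 2 DMSO libraries was analysed from the deposited tables, with groups and replicate numbers from the sample titles. TRIzol was used for extraction, per the labels' protocols. Per the submitters' processing notes, fastp, STAR, StringTie 2.2.1 and featureCounts 2.0.1 were used on the build GRCh38. Not given in the sources used here are the annotation, the strandedness and the treatment of reads that match several genes. The authors deposited whole-number values in 107429 rows for 25798 gene IDs, 14076 with several rows, which were read as estimated counts and summed per gene ID, although plain counts per gene had been planned for. The FPKM values, in the same rows, were normalized by the authors and summed likewise.

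Genes were tested with edgeR 4.0.16 (R), TMM factors and filterByExpr (minimum count 10), which left 17090 genes and removed 8708, with group as the only term, Benjamini-Hochberg adjustment and a threshold of 0.05. CPM values use the TMM-scaled library size. The SE was obtained as the size of the log2 fold change over the square root of F, and fold intervals are at 95%. Alternatives used DESeq2 1.42.0, limma-voom 3.58.1, other scalings and filters, log2 FPKM, offsets for GC content and length, a replicate block and single libraries left out. Only the edgeR function of the main fit was run on simulated counts, drawn at these means, library sizes and dispersions without a GC trend. Symbols came from a gene name table, coordinates (1-based) and GC content from GENCODE release 29, near copies (at least 200 nucleotides at 95% identity) from BLAST+ 2.17.0, and promoters from RefSeq (GRCh38.p14).

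The 43 genes, the role groups and the further lists were chosen with earlier results of these data known. Library values are given for the gene of each role group with the highest mean FPKM and the one with the smallest p at a mean of at least 1 CPM, and for up to 5 with the largest rise and fall and groups that do not overlap (16 genes). Up to 2 genes of each further list were named by smallest p, and other genes were described after their values were seen. Depth limits genes of a few counts, and floors of 3 counts cover counting error only.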

Additional observations from a re-analysis of the deposited data

How the results depend on the processing

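No gene of the set passed the threshold under any alternative except the fit without erianin replicate 1, so that single libraries left out gave 0 to 8 such genes. Over the whole table, where 7 genes passed, 2 passed with library totals alone, 21 with DESeq2, 0 with limma-voom, 2 with log2 FPKM at either pseudocount (0.1 or 1), 0 with the highest row of each gene and 24 to 3166 as single libraries were left out. The median log2 fold change of the set, 0.11, was 0.13 with upper-quartile factors and with a CPM of at least 1 in 2 libraries, 0.0056 with library totals alone, 0.0018 with the GC and length trend removed, 0.0049 and 0.0050 with log2 FPKM at pseudocounts of 0.1 and 1, 0.043 with the highest row of each gene and 0.047 to 0.13 as single libraries were left out.

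The replicate numbers were not shown to pair the libraries, there being only 2 pairs (correlation of same-numbered deviations 0.222 over 7986 genes). With the replicate block 334 genes passed over the whole table, 0 of the 43 genes among them, and IL6ST (adjusted p = 0.0293), LIFR (0.0213) and VCAM1 (0.00825) among the further genes. With the block and the GC and length trend removed, 14 passed, the median of the set was -0.0019, and IL6ST (adjusted p = 0.638), LIFR (0.575) and VCAM1 (0.408) no longer passed.

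Signs turned for a few genes named by rule, none of which passed the test. NFKBIB was at -0.023 with library totals, -0.11 with the GC and length trend removed, with or without the block, -0.072 and -0.069 with log2 FPKM at the 2 pseudocounts, and -0.0063 to 0.15 as single libraries were left out. IRAK1 was at -0.040 with the GC and length trend removed, -0.041 with the block as well, and -0.019 to 0.22 as single libraries were left out. CXCL16 was at -0.0093 with the block and the trend removed, -0.055 and -0.043 with log2 FPKM, and -0.081 to 0.32 as single libraries were left out. IL18 was at 0.11 with the trend removed, 0.10 with the block as well, 0.080 with the highest row of each gene, and -0.24 to 0.089 as single libraries were left out. With the highest row of each gene NFKB2 was at -0.53, IL32 at -0.58 and CARD10 at -0.16. The causes were not tested.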
